A study of Mus musculus with 4 samples.

Results

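The transcription factors that set the gene programme and the lifespan of double-positive (DP) thymocytes were examined: Rora, Tcf7, Lef1, Tcf12, Satb1, Bcl11b, Ikzf1, Ets1 and Myb. The 9 genes were taken by name, with earlier results of these data known, and every non-control probe carrying one of these names in the array design was taken. This gave 23 of the 41174 probes. All 9 genes had at least 1 probe well above background on all 4 arrays, and 9 of the 13062 genes tested were therefore members. The 2 probes that were not well above background on any array were built on RIKEN cDNAs of Rora and Lef1.

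The samples were sorted CD4+CD8+ thymocytes of untreated mice aged 6 to 12 weeks, described in the labels as littermates matched for sex. The USP8ff_CD4Cre group carried loxP-flanked alleles of Usp8, a deubiquitinase gene, together with Cre driven by Cd4 regulatory sequences. The USP8ff group carried the same loxP-flanked alleles without Cre. Each group had 2 arrays, and each array held RNA pooled from 2 mice, 8 mice in all. No group carried Cre alone, so effects of Cre and of the deletion cannot be told apart, and a Cd4-driven Cre reaches later T cells as well. With 4 arrays precision is limited, and a p-value speaks only for the variation from pool to pool. In sorted bulk cells, fewer cells of one kind and less RNA per cell cannot be told apart.

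A DP thymocyte carries both co-receptors, rearranges its T cell receptor alpha chain, and dies within days unless it is selected. The nuclear receptors of the ROR family and the HMG-box factors encoded by Tcf7 and Lef1 are known to prolong this lifespan, partly through the survival gene Bcl2l1. Tcf12 encodes HEB, an E protein that binds E-box sequences and is held in check by Id proteins. Satb1 and Bcl11b shape T lineage chromatin, Ikzf1 encodes Ikaros, and Ets1 and Myb encode activators needed at several stages of thymocyte development.

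The probes are 60-base oligonucleotides, and they are numbered here from 5′ to 3′ along each gene, among those above background. Positions are given on mm9, as the array design records them. Exon, intron and UTR were not looked up here, for want of an annotation of that build. The first pair below is shown because both probes read nearly the same stretch of Ets1, from chr9:32561816-32561875 (probe 1) and chr9:32561826-32561885 (probe 2), plus strand. Capitals mark the bases in which they differ within their 50-base overlap.
Ets1 probe 1: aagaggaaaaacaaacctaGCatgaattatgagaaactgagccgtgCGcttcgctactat
Ets1 probe 2: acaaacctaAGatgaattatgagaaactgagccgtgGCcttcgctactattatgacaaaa
Counted from 1 at the 5′ end of probe 2, which was designed to a RefSeq mRNA, the differences are A10G, G11C, G37C and C38G, with the base of probe 2 given first. Probe 1 was designed to another GenBank mRNA.

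The Rora pair is shown because its members lie 100 bases apart and gave differences of unlike size. Their intervals overlapped, and whether the probes differ from each other was not tested. Probe 1 lies at chr9:69226611-69226670 and probe 2 at chr9:69226711-69226770, plus strand, and no base is marked.
Rora probe 1: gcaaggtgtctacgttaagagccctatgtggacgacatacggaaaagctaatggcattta
Rora probe 2: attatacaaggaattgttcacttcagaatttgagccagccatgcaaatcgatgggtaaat

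The last set shows, for 3 genes, the probe that gave the most negative difference, and for Tcf12 also the probe that stood for the gene. They lie on the minus strand at chr12:109153847-109153906 (Bcl11b), chr10:20872381-20872440 (Myb), chr9:71791228-71791287 (Tcf12 probe 1) and chr9:71692310-71692369 (Tcf12 probe 3). Of each Tcf12 probe the first 30 bases are printed, with no base marked. The Tcf12 probes start 98918 bases apart.
Bcl11b probe 1: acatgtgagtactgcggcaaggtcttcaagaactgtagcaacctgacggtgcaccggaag
Myb probe 1: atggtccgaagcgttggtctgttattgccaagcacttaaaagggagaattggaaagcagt
Tcf12 probe 1: atttttgctaatggtcatctttttcactgt
Tcf12 probe 3: atttacaatagcattttaagagcatagtag

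Usp8 itself was checked first, on its 1 probe above background (chr2:126584363-126584422). Its log2 level was -1.03 and -1.23 in USP8ff_CD4Cre, against -0.23 and -0.40 in USP8ff. All levels here are log2 signals after subtraction of the 75th percentile of the same array. The arrays of the genotypes did not overlap, with a difference (USP8ff_CD4Cre minus USP8ff) of -0.81 ± 0.13 (SE; limma, adjusted p = 0.60). Between 45.0% and 48.9% of probes were well above background on an array. All 10 markers of DP thymocytes (among them Cd4, Cd8a, Cd8b1, Rag1, Rag2 and Ptcra) were well above background on all 4 arrays. Their summed level, in units of the 75th percentile, was 1746 and 1767 in USP8ff_CD4Cre, against 1660 and 1736 in USP8ff. The sum weighs the brightest genes most, here Dntt and Cd8b1, whose differences were 0.10 and 0.09. Gene by gene, 7 of the 10 had a negative difference, against 45.2% of all genes, and the median was -0.06. Without overlap, 4 were lower and 2 higher, against 16.3% and 24.3% of all genes. Markers of other cells were compared between genotypes in the same way, list by list. B cell markers (2 of 7 measured) had summed levels of 5.17 to 6.08 in USP8ff_CD4Cre and 6.16 to 6.62 in USP8ff, with Blnk at -0.75 and Cd79b at -0.08 in the difference. Those of macrophages and dendritic cells were 2.32 to 2.56 in USP8ff_CD4Cre and 2.68 to 2.69 in USP8ff (6 of 19 measured). Differences there were -1.09 for Mpeg1 (limma, adjusted p = 0.66), 0.25 for C1qb and -0.12 for Cd68, the first 2 without overlap. The B cell genes Ms4a1 and Pax5 were not well above background on any array. Erythroid markers had 0.187 to 0.395 in USP8ff_CD4Cre and 0.181 to 0.206 in USP8ff (2 of 8 measured), with Hba-a2 at 0.82 and Car1 at -0.30 in the difference. Thymic stroma markers had 1.17 to 1.26 in USP8ff_CD4Cre and 1.31 to 1.41 in USP8ff (4 of 11 measured). Their differences were -0.47 for Epcam (limma, adjusted p = 0.66), 0.22 for Krt5 and -0.10 for Pecam1, each without overlap. The part of these cells in the results below was not tested.

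None of the 9 factor genes differed between the genotypes by the test used. In limma, over 13062 genes with Benjamini-Hochberg adjustment, 0 of 9 passed an adjusted p of 0.05, as did 0% of all genes, and 0 of 9 had an unadjusted p under 0.05, against 3.46% of all genes lower in USP8ff_CD4Cre and 3.97% higher. The smallest adjusted p among them was 0.73. With each gene represented by its brightest probe, 6 of 9 had a negative difference (USP8ff_CD4Cre minus USP8ff), against 45.2% of all genes. That count rested on single arrays: it was 8 without USP8ff_CD4Cre replicate 1, 5 without USP8ff replicate 1, 3 without USP8ff replicate 2 and 3 without USP8ff_CD4Cre replicate 2. The median difference was -0.03 over the 9 genes and 0.02 over all genes, and the median size of the difference, regardless of sign, was 0.089 and 0.12. In 2 of 9 genes the arrays of the genotypes did not overlap, against 40.6% of all genes. These were Bcl11b, with less signal in USP8ff_CD4Cre (1 gene, against 16.3% of all genes in that direction), and Tcf7, with more (1 gene, against 24.3%). With 1 array left out it was 5 to 6 genes, against 61.0% to 75.1% of all genes, since fewer arrays can overlap.

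Each of the 21 measured probes was also fitted as its own feature, over 19038 probes, and the values that follow come from that fit. Of the 21, 15 had a negative difference, against 46.9% of all probes, and 0 passed adjustment, as did 0% of all probes. At an unadjusted p under 0.05 there were 2, both lower in USP8ff_CD4Cre, against 3.3% of all probes in that direction, and 0 were higher, against 3.37%. The arrays did not overlap for 6 probes, against 38.7% of all probes: 5 were lower in USP8ff_CD4Cre, against 16.6%, and 1 was higher, against 22.1%. The 95% intervals of limma, not adjusted for the number of probes, held no 2-fold change for any of the 21 probes, and for 18 they lay within 1.5-fold in both directions. For 17 of 21 probes the difference was smaller than the larger gap between the arrays of 1 genotype. The same share over all probes was not computed, so this count cannot show anything particular to the factors.

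**Figure D1:**
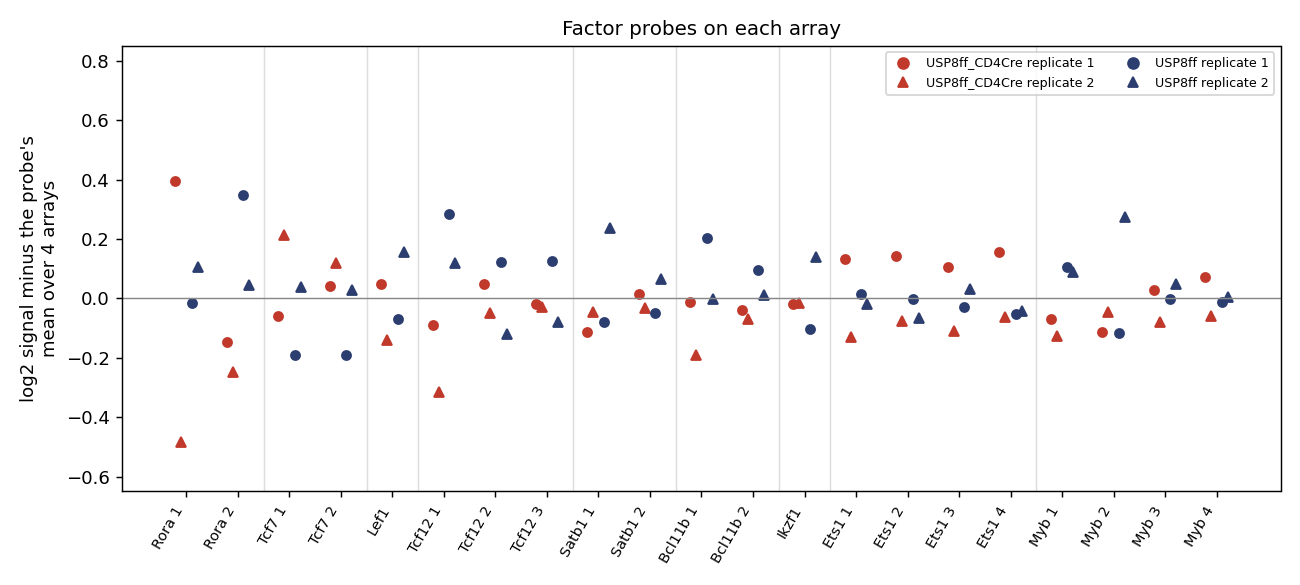
Log2 signal of the 21 measured factor probes on each array, minus the mean of that probe over the 4 arrays; USP8ff_CD4Cre arrays are red and left, USP8ff arrays blue and right, and probes are numbered 5′ to 3′ within a gene. The genotypes interleave for most probes, the arrays of Ets1 part by replicate within USP8ff_CD4Cre, and Rora probe 1 has the widest scatter.

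Among the HMG-box factors, Tcf7 had slightly more signal in USP8ff_CD4Cre. Tcf7 encodes the factor that carries T lineage identity and supports DP survival. Its probe 2 (chr11:52066114-52066173), which stood for the gene, had log2 levels of 6.73 and 6.81 in USP8ff_CD4Cre, against 6.50 and 6.72 in USP8ff. Both USP8ff_CD4Cre arrays lay above both USP8ff arrays, by a margin smaller than the gap between the USP8ff arrays. The difference was 0.16 ± 0.13 (SE; adjusted p = 0.83), with an interval from 0.893-fold to 1.40-fold. Probe 1 (chr11:52066831-52066890) gave 5.55 and 5.82 in USP8ff_CD4Cre and 5.41 and 5.64 in USP8ff, and its difference was 0.15 ± 0.15. Here the genotypes overlapped, although the difference was of like size.

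Lef1, the HMG-box partner of Tcf7, was read by a probe whose genomic span of 18162 bases crosses an intron (chr3:130907851-130926012). Its levels were 3.70 and 3.51 in USP8ff_CD4Cre, against 3.58 and 3.81 in USP8ff. The arrays interleaved, and the difference was -0.09 ± 0.14 (adjusted p = 0.91), with an interval from 0.736-fold to 1.20-fold. The intervals of Tcf7 and Lef1 overlapped, and the difference between these genes was not tested.

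Rora, a ROR family nuclear receptor gene, was read close to background. Its raw intensities on probe 1 were 73.7 and 42.1 in USP8ff_CD4Cre, against 61.3 and 67.1 in USP8ff. On probe 2 they were 40.8 and 40.0 in USP8ff_CD4Cre, against 63.8 and 51.9 in USP8ff. In log2 levels probe 2 had -3.70 and -3.81 in USP8ff_CD4Cre and -3.21 and -3.51 in USP8ff, so that the genotypes did not overlap. The lowest signals called well above background were not far below, at -4.05 and -4.49 on the USP8ff_CD4Cre arrays and -3.87 and -4.19 on the USP8ff arrays. The differences were -0.40 ± 0.15 for probe 2 (unadjusted p = 0.039, adjusted p = 0.74) and -0.09 ± 0.29 for probe 1 (adjusted p = 0.96). With normexp background correction the difference of probe 2 was -0.15, and that of probe 1 was 0.11, with the opposite sign. On probe 1 the USP8ff_CD4Cre arrays lay on either side of both USP8ff arrays, and without USP8ff_CD4Cre replicate 2 its difference was 0.35. Without USP8ff replicate 1 the difference of probe 2 was -0.24.

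The E protein gene Tcf12 was read by probes 1 to 3. Its probe 3 had 4.96 and 4.95 in USP8ff_CD4Cre, against 5.11 and 4.90 in USP8ff, a difference of -0.05 ± 0.12 (adjusted p = 0.95). Its probe 2 (chr9:71693581-71693640) had 2.52 and 2.42 in USP8ff_CD4Cre, against 2.60 and 2.35 in USP8ff, a difference of -0.003 ± 0.13. On both of these, which were designed to the RefSeq mRNA, the genotypes overlapped. Probe 1, designed to a RIKEN cDNA, had -0.63 and -0.86 in USP8ff_CD4Cre, against -0.26 and -0.43 in USP8ff. Its arrays did not overlap, and its difference of -0.40 ± 0.14 had the smallest p of the 21 probes (unadjusted 0.030, adjusted 0.73). Its interval ran from 0.594-fold to 0.962-fold and overlapped that of probe 3, from 0.778-fold to 1.20-fold. Whether the probes differ from each other was not tested. Under the other settings the difference of probe 1 ranged from -0.52 to -0.29. With no overlap, leaving out 1 array could not turn its sign.

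The chromatin organiser Satb1 was read without a saturated spot. Probe 2 (chr17:51879137-51879196) read 105649 and 107666 intensity units in USP8ff_CD4Cre, against 112029 and 121970 in USP8ff. Set against each array's 75th percentile these became 7.63 and 7.59 in USP8ff_CD4Cre, against 7.57 and 7.68 in USP8ff, and the genotypes overlapped. The difference was -0.02 ± 0.11 (adjusted p = 0.98), with an interval from 0.810-fold to 1.21-fold. Probe 1 (chr17:51946464-51946523), designed to a RIKEN cDNA, had 4.60 and 4.67 in USP8ff_CD4Cre, against 4.63 and 4.95 in USP8ff. Its difference of -0.16 ± 0.15 came mostly from USP8ff replicate 2, and without that array it was -0.0011.

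Bcl11b, the zinc finger gene that guards T lineage commitment, had less signal in USP8ff_CD4Cre on both of its probes. Probe 1 (chr12:109153847-109153906) had 5.93 and 5.76 in USP8ff_CD4Cre, against 6.15 and 5.95 in USP8ff. Probe 2 (chr12:109148932-109148991) had 4.83 and 4.80 in USP8ff_CD4Cre, against 4.96 and 4.88 in USP8ff. The genotypes did not overlap on either, although on probe 1 the nearest arrays of the 2 genotypes nearly touched. The differences were -0.20 ± 0.14 (adjusted p = 0.79) and -0.11 ± 0.11 (adjusted p = 0.86), with intervals from 0.685-fold to 1.10-fold and from 0.764-fold to 1.13-fold. Bcl11b was negative on both probes under every setting run, from -0.31 to -0.10 on probe 1 and from -0.17 to -0.07 on probe 2. Leaving out 1 array could not turn either sign, since the genotypes did not overlap, and several settings leave a probe's difference unchanged.

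Ikzf1 had 1 probe, whose span of 2960 bases crosses an intron (chr11:11658319-11661278). Its levels were 2.41 and 2.41 in USP8ff_CD4Cre, against 2.32 and 2.57 in USP8ff. Both USP8ff_CD4Cre arrays lay between the USP8ff arrays, and the difference was -0.03 ± 0.13 (adjusted p = 0.97).

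Ets1, the founding ETS family gene, had small differences on every probe. Its differences on probes 1 to 4 were 0.0036, 0.07, -0.0033 and 0.10, each with an SE of 0.13. Probe 4 (chr9:32564860-32564919), which stood for the gene, had 5.82 and 5.60 in USP8ff_CD4Cre, against 5.61 and 5.62 in USP8ff. On all 4 Ets1 probes USP8ff_CD4Cre replicate 1 was the highest array and replicate 2 the lowest, with both USP8ff arrays between them. The gap between the USP8ff_CD4Cre arrays, 0.21 to 0.26, was larger than any of the 4 genotype differences. The overlapping probes 1 and 2 printed above differed in 4 bases, read the same array order, and had overlapping intervals.

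Myb, a proto-oncogene needed for DP survival during receptor rearrangement, was measured with the most spots. Its probe 4 (chr10:20844963-20845022) was printed 10 times on each array. The SD of log2 signal over the 10 spots was 0.053 and 0.10 on the USP8ff_CD4Cre arrays, and 0.064 and 0.055 on the USP8ff arrays. Their means were 6.42 and 6.29 in USP8ff_CD4Cre, against 6.34 and 6.36 in USP8ff. The USP8ff arrays lay between those of USP8ff_CD4Cre, and the difference was 0.01 ± 0.12 (adjusted p = 0.99), with an interval from 0.824-fold to 1.23-fold. Spots of 1 array share its RNA and are no replicates of a genotype. Over all 110 measured probes printed repeatedly the median SD was 0.062 and 0.060 on the USP8ff_CD4Cre arrays and 0.062 and 0.059 on the USP8ff arrays, so the Myb spots of USP8ff_CD4Cre replicate 2 were more scattered than the median there.

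**Figure D2:**
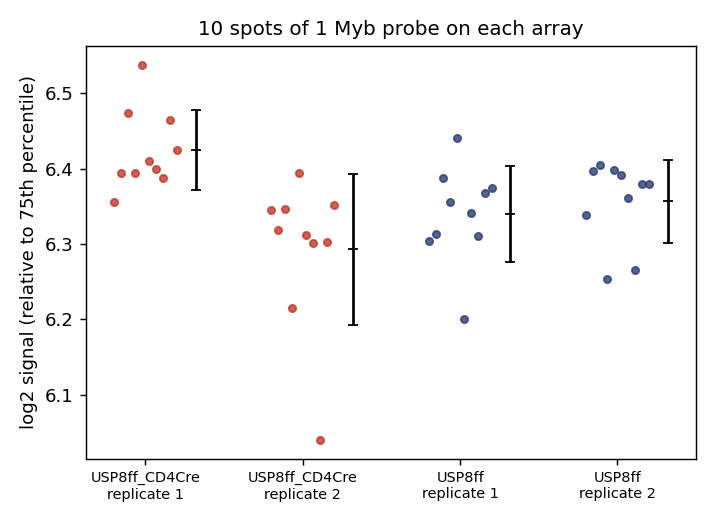
Log2 signal of the 10 spots of Myb probe 4 on each array, relative to the array's 75th percentile, with the mean and SD of the spots beside them; USP8ff_CD4Cre is red and left, USP8ff blue and right. The array means span 6.29 to 6.42, and the spots of all 4 arrays overlap.

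The other Myb probes had negative differences. Probe 1 had 0.41 and 0.35 in USP8ff_CD4Cre, against 0.58 and 0.56 in USP8ff, with narrow gaps within each genotype and no overlap. Its difference was -0.19 ± 0.11 (adjusted p = 0.77), with an interval from 0.723-fold to 1.06-fold. It was negative under every setting run (-0.22 to -0.17), but without overlap no left-out array could turn its sign. Probe 2 (chr10:20866791-20866850), designed to a RIKEN cDNA, had -0.16 ± 0.16, and probe 3 (chr10:20845222-20845280) had -0.05 ± 0.11. On probe 2 the levels were 2.49 and 2.56 in USP8ff_CD4Cre, against 2.49 and 2.88 in USP8ff, so that its difference rested on USP8ff replicate 2. Without that array it was 0.04.

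**Figure D3:**
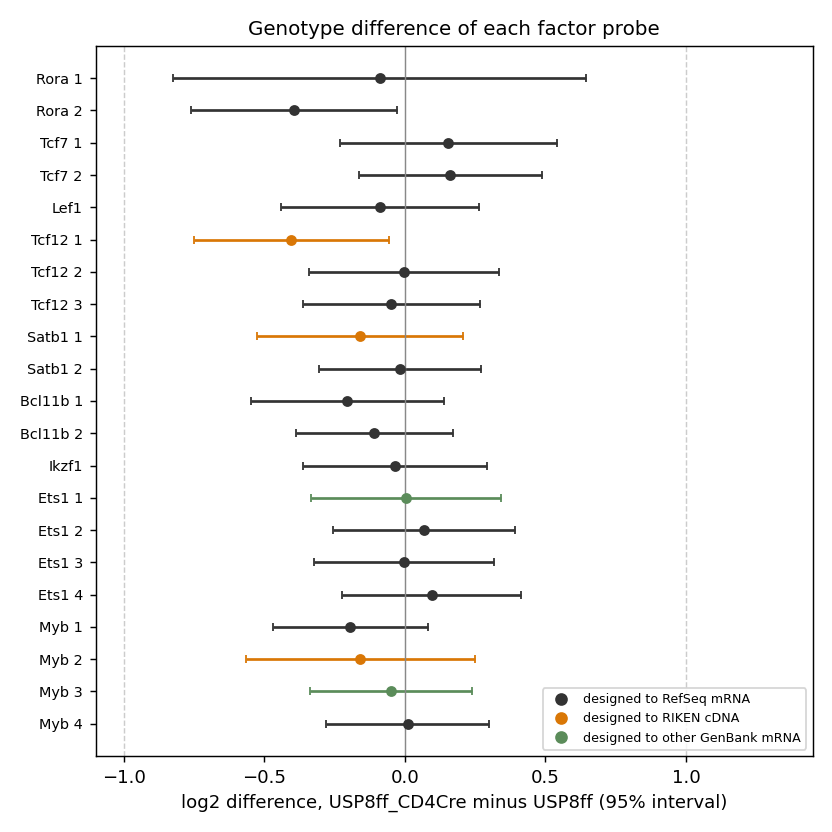
Log2 difference, USP8ff_CD4Cre minus USP8ff, of each of the 21 factor probes, with the 95% interval of limma's fit over probes; colours give the kind of sequence the probe was designed to, and dashed lines mark a 2-fold change. Every interval stays inside the dashed lines, and only those of Rora probe 2 and Tcf12 probe 1 leave out 0.

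Probes of 1 gene did not always give the same difference, and the array as a whole showed how usual that was. Of the 16 measured member probes designed to RefSeq mRNAs, 11 had a negative difference, with a median of -0.03. All 3 designed to RIKEN cDNAs had one, in Tcf12, Satb1 and Myb, and each was more negative than the RefSeq mean of its gene. This was also the common direction on the array. Of 787 genes with measured probes of both kinds, 64.7% had the lower difference on the RIKEN side, with a median of -0.06. Of the 5 member genes whose outermost measured probes lay at least 1000 bases apart (Bcl11b, Ets1, Myb, Satb1 and Tcf12), all 5 had the lower difference at the 5′ end. Across 3338 such genes 55.8% did, with a median of -0.02. With RefSeq probes alone it was 3 of 4 member genes, against 55.6% of 2772 genes. These 2 comparisons were chosen after the values were seen, and they are given as a description.

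Across all genes, the share of negative differences also varied with the signal level. The part of signal level in the factor values was not tested. Genes in the brightest 10% had a median difference of 0.08, and 27.4% of those 1307 genes had a negative one. Of the 9 factors, 6 were among these (Bcl11b, Ets1, Myb, Satb1, Tcf12 and Tcf7), and 3 of the 6 were negative. Bcl11b, at -0.20, lay among the lowest 3.21% of these genes. With quantile normalization 7 of the 9 factors were negative, against 49.3% of all genes, and Myb was among them at -0.11.

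**Figure D4:**
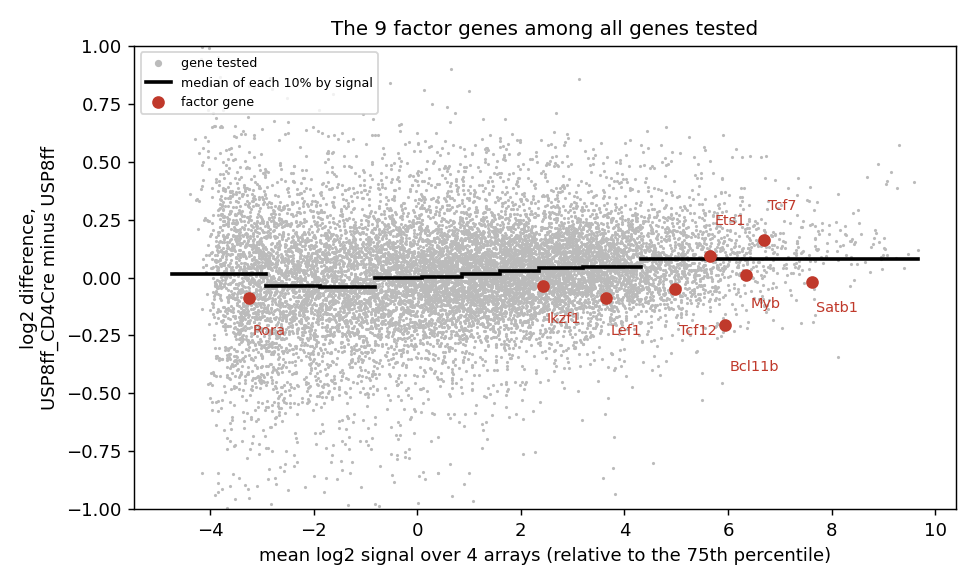
Difference between genotypes (log2, USP8ff_CD4Cre minus USP8ff) against mean log2 signal for the 13062 genes tested, with the median of each 10% by signal as a bar and the 9 factors in red; 61 genes beyond 1 in either direction are not drawn. The bars lie near 0 and reach 0.08 in the brightest 10%, and Bcl11b has the lowest difference of the factors.

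Partners and targets of the factors were then counted from lists, with values from the fit over genes. No member of any of these lists passed adjustment. The sign of the list median turned under at least 1 alternative, each time including 1 left-out array, for every list below except the NuRD, chromatin organiser and DP programme lists. It turned without USP8ff_CD4Cre replicate 1 for the E protein, MYB and other T lineage lists, and without USP8ff_CD4Cre replicate 2 for the TCF/LEF and ROR lists. It turned without USP8ff replicate 1 for the E protein, TCF/LEF, MYB and survival lists, and without USP8ff replicate 2 for the ROR, ETS and RUNX, other T lineage and survival lists. Among E proteins, Id inhibitors and cofactors, 9 of 12 were measured, 4 with negative and 5 with positive differences, and the median was 0.02. The E protein gene Tcf3 had 4.29 and 4.16 in USP8ff_CD4Cre, against 4.05 and 4.13 in USP8ff, a difference of 0.14 ± 0.11. Id3, an inhibitor of E proteins induced by receptor signals, had 0.09 ± 0.12. Id2, another inhibitor, which innate lymphocytes express highly, had -0.28 and -0.78 in USP8ff_CD4Cre, against 0.28 and 0.13 in USP8ff. Its arrays did not overlap, and its difference of -0.74 ± 0.19 had an adjusted p of 0.66. The smallest other p-values belonged to Lyl1 (-0.37) and Id1 (-0.25).

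Signal of other lymphocytes stood beside that of Id2. Of 12 markers of NK, innate and gamma-delta T cells, 5 were measured, 3 lower and 2 higher without overlap, against 16.3% and 24.3% of all genes. The 3 with the smallest p, Nkg7, Il2rb and Prf1, had -2.09, -2.02 and -0.86, and none passed adjustment. The summed level of the 5 was 3.94 and 5.29 in USP8ff_CD4Cre, against 4.28 and 4.37 in USP8ff. Gzma carried most of that sum, which adds linear levels. Its log2 levels were 1.59 and 2.12 in USP8ff_CD4Cre and 1.53 and 1.35 in USP8ff. Its difference was 0.42, opposite in sign to Nkg7, Il2rb and Prf1. Of this list 4 genes were well above background on all 4 arrays, and Eomes, Ncr1 and Klrb1c on none. The remaining measured gene passed the filter through 1 genotype alone, which favours a higher value there. It counts among the 5 without overlap. Of 10 markers of mature single-positive thymocytes 9 were measured, 8 lower and 1 higher without overlap (16.3% and 24.3% of all genes). Il7r had -2.99, Itgae -2.04 and Gimap4 -1.33, and none of the 9 passed adjustment. In USP8ff_CD4Cre, Il7r (-4.81 and -5.07) and Itgae (-4.08 and -4.52) lay below the lowest signals well above background there, -4.05 and -4.49. So did Gimap4 on replicate 1 (-4.45). The filter kept these genes through USP8ff alone, which favours a negative difference, and they count among the 8. The summed level of the 9 was 157 and 161 in USP8ff_CD4Cre, against 158 and 173 in USP8ff. Most of that sum came from Klf2 (difference 0.23) and Cd52 (-0.46). The part of these cells in the Id2 value was not tested.

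The TCF/LEF cofactors and Wnt-responsive genes had 14 of 16 measured, 6 with negative and 8 with positive differences, and a median of 0.04. The Groucho-family corepressor gene Tle2 had 0.89 and 0.87 in USP8ff_CD4Cre, against 1.29 and 1.94 in USP8ff (difference -0.74 ± 0.23, adjusted p = 0.66). The USP8ff arrays of Tle2 lay far apart, the USP8ff_CD4Cre arrays close together. Bcl9l, a beta-catenin cofactor gene, had 0.29, and Tcf7l1, a TCF family gene, had -0.25. ROR receptors, corepressors and clock partners had 10 of 12 measured, 6 negative and 4 positive, with a median of -0.03. Nr1d1 and Nr1d2, which encode the REV-ERB receptors that compete with ROR proteins for their sites, had -0.47 ± 0.14 and -0.38 ± 0.19. For Nr1d1 the signals were -3.69 and -3.87 in USP8ff_CD4Cre, against -3.43 and -3.19 in USP8ff, near the lowest measured. The corepressor gene Ncor1 had 0.11.

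The Ikaros family and the NuRD remodelling complex had 16 of 17 measured, 5 negative and 11 positive, with a median of 0.11. Rbbp7, Ikzf2 and Rbbp4 had 0.25, 0.23 and 0.20. Chromatin organisers related to Satb1 and Bcl11b had 11 of 13 measured, 2 negative and 9 positive, with a median of 0.13, against 54.8% positive and a median of 0.02 among all genes. In 7 of the 11 both USP8ff_CD4Cre arrays lay above both USP8ff arrays, against 24.3% of all genes. Most of the 11 were bright, and of the 2 brightest 10% groups of genes 36.3% and 27.4% were negative, with medians of 0.045 and 0.080. With quantile normalization the medians of the NuRD and organiser lists were 0.073 and 0.074. Smarcc1, a SWI/SNF subunit gene, had 4.39 and 4.36 in USP8ff_CD4Cre, against 4.05 and 4.06 in USP8ff (difference 0.32 ± 0.10, adjusted p = 0.66). The cohesin gene Smc3 had 0.24 and the insulator gene Ctcf 0.16.

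ETS and RUNX factors had 13 of 17 measured, 7 negative and 6 positive, with a median of -0.06, and Cbfb, Elk3 and Runx3 had 0.23, -0.23 and -0.15. The MYB family and coactivators had 6 of 7 measured, 2 negative and 4 positive, with a median of 0.05. Mybl2, a MYB family gene of dividing cells, had 1.69 and 2.06 in USP8ff_CD4Cre, against 1.43 and 1.20 in USP8ff. Its difference was 0.56 ± 0.17 (adjusted p = 0.66). Nlk, which encodes a kinase that acts on MYB and LEF proteins, had 1.99 and 1.64 in USP8ff_CD4Cre, against 2.29 and 2.31 in USP8ff, a difference of -0.48 ± 0.15 (adjusted p = 0.66). Kat7 had 0.11. Other transcription factors of the T lineage had 17 of 23 measured, 8 negative and 9 positive, with a median of 0.0038. Klf2, Myc and Mef2d had 0.23, 0.19 and 0.15.

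Genes of the DP programme had small differences. Of the 24 genes, all measured, 16 had negative and 8 positive differences, with a median of -0.07, from -0.33 to 0.19. That median was -0.15 with quantile normalization and -0.039 without USP8ff replicate 2. Rag1, which encodes a recombinase subunit, had 7.38 and 7.26 in USP8ff_CD4Cre, against 7.47 and 7.56 in USP8ff. Rag2, which encodes the other subunit, had -1.46 and -1.43 in USP8ff_CD4Cre, against -1.24 and -0.99 in USP8ff. For both, the genotypes did not overlap, and the differences were -0.19 ± 0.11 (adjusted p = 0.71) and -0.33 ± 0.13 (adjusted p = 0.67). The Rag1 values are of its brightest probe. In the fit over probes, another Rag1 probe had -0.27 ± 0.13 without overlap, and a further one -0.18 ± 0.20 with overlapping arrays. Ptcra, which encodes the pre-receptor alpha chain, had -0.16 ± 0.17, with overlapping arrays. Cd1d1, the lipid-presenting molecule gene of DP cells, had -0.25, and Cd24a, a surface marker gene of immature thymocytes, had 0.19.

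Among thymocyte survival genes 17 of 18 were measured, 10 with negative and 7 with positive differences, and the median was -0.02. Bcl2l1, the survival gene that ROR and TCF factors are known to sustain, had 1.87 and 1.93 in USP8ff_CD4Cre, against 2.07 and 1.94 in USP8ff. Its difference was -0.10 ± 0.11 (adjusted p = 0.84), with an interval from 0.767-fold to 1.13-fold. These values are of its brightest probe, on which the arrays did not overlap, by a small margin. In the fit over probes its other probes had -0.11 ± 0.11 (adjusted p = 0.86) and -0.18 ± 0.12 (adjusted p = 0.80). On these too the USP8ff_CD4Cre arrays were lower without overlap, against 16.6% of all probes. The most negative values belonged to Bmf (-0.94 ± 0.26), a pro-apoptotic gene, and Bcl2a1b (-0.91 ± 0.16), which belongs to a family of near-identical copies whose signals may not be separable. Pim1, a survival kinase gene, had 0.26.

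**Figure D5:**
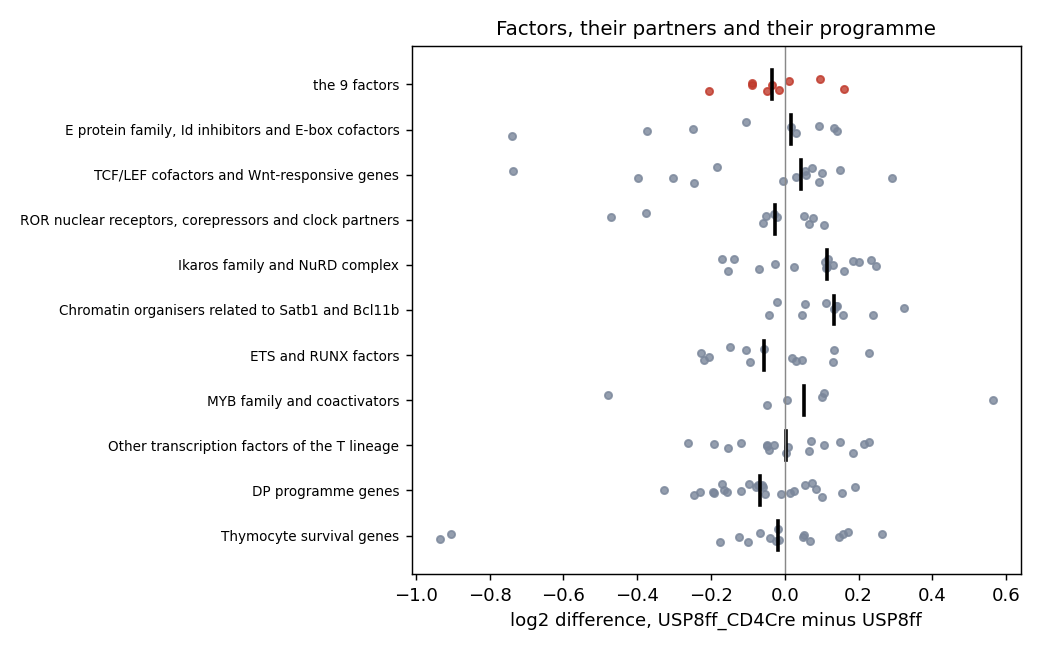
Log2 difference, USP8ff_CD4Cre minus USP8ff, of each measured gene of the 9 factors (red) and of the lists of partners, targets and survival genes (grey), with the median of each list as a bar. The factors span -0.20 to 0.16, and the widest values stand in the E protein, TCF/LEF cofactor, MYB and survival lists.

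In the authors' deposited table, 78 probes are listed, against 41174 on the array, and 0 of the 9 factor genes are among them. With so few probes listed, this shows nothing particular to the factors.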

How the data were processed

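RNA of sorted DP thymocytes (500 ng per array, per the labels) was measured on Agilent arrays in 1 colour. The 4 arrays shared 1 slide and 1 scan time, per the file headers, which name Feature Extraction 10.7.3.1. The deposited scanner files hold intensity values, background-subtracted and detrended within each array, with no normalization between arrays. The authors' deposited table holds an absolute fold ratio and a p-value for each probe, made by an unstated test. A further table with 4 unlabelled value columns was not used.

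Log2 intensity was set against the 75th percentile of each array, outlier spots were dropped (17 probes lost), and spots of a probe were averaged. The filter kept 19038 probes, those that cleared background on both arrays of either genotype, and the brightest stood for its gene (13062 genes). Names came from a RefSeq table (GRCm38.p6) for 26690 of 41174 probes. The genotype test was that of limma 3.58.1 (R 4.3.3), tested on simulated data, with Benjamini-Hochberg adjustment over all features. With 2 arrays against 2 an exact permutation test cannot go below p = 0.33. Alternatives were other scalings, background correction, filters, probe averaging, an intensity trend, a replicate block and each array left out. The members and lists were chosen with earlier results of these data known. By the naming rule, every probe of a member, up to 3 genes per list with the smallest p, and genes that background sentences need are named, and some cell markers beside them. A gene of that rule is not reported here. Figures were drawn with matplotlib 3.10.9.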

Additional observations from a re-analysis of the deposited data

How the results depend on the processing

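Over 13 alternative settings, 0 genes and 0 probes passed adjustment in each, and the smallest adjusted p of any member was 0.47 (Tcf12 probe 1, replicate block). Signs turned in 12 of 117 recomputed gene differences and in 21 of 252 recomputed probe differences. These totals include the filters, the intensity trend and the replicate block, which left every member's difference unchanged. The share of turned signs is therefore lower than among the settings that could change it. Quantile normalization gave -0.11 for Myb (probe 4), median scaling -0.0046 for Ets1 probe 1, normexp 0.11 for Rora (probe 1), and averaging probes -0.10 for Myb. The cause of these turns was not tested. With normexp the arrays of 1 member did not overlap (39.2% of all genes), against 2 (40.6%).

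With each array left out, 3 to 8 members were negative and 5 to 6 did not overlap (61.0% to 75.1% of all genes, since fewer arrays can overlap). Ranges were -0.014 to 0.20 for Ets1 and its probe 4, -0.13 to 0.13 for probe 1, -0.040 to 0.18 for probe 2 and -0.11 to 0.10 for probe 3. They were -0.16 to 0.086 for Ikzf1, -0.20 to 0.024 for Lef1, -0.055 to 0.076 for Myb and its probe 4, -0.35 to 0.036 for its probe 2 and -0.10 to 0.0055 for its probe 3. Rora (probe 1) ranged from -0.53 to 0.35, Satb1 (probe 2) from -0.074 to 0.040, Tcf12 (probe 3) from -0.15 to 0.056 and its probe 2 from -0.13 to 0.12.

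Same-numbered arrays deviated together (r = 0.32 across genes), but with 2 pairs and no label the numbers are not known to pair samples. With the replicate block 0 genes and 0 probes were called, and 1338 genes had an unadjusted p under 0.05, against 970. By design the block cannot change a difference or the overlap of arrays, so the members stayed at 6 negative and 2 without overlap. With no filter on dim probes the median of all genes was -0.13, against 0.02. Of 208 recomputed list medians 33 moved beyond the spread between arrays. The medians ranged from -0.044 to 0.063 for the E protein list, -0.070 to 0.083 for TCF/LEF cofactors, -0.10 to 0.043 for ROR partners, -0.10 to 0.016 for ETS and RUNX, -0.053 to 0.10 for MYB, -0.15 to 0.11 for other T lineage factors and -0.049 to 0.018 for survival genes. They kept their sign for NuRD (0.073 to 0.11), chromatin organisers (0.074 to 0.17) and the DP programme (-0.15 to -0.039). Rora lies near background, which limits its precision.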
